A study of Mus musculus with 2 samples.

Results

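Shared Sap130 summits are points of strongest ChIP signal that lie close to 2 or more genes at once. They were chosen from a list of Sap130 peak summits in the embryonic mouse heart by position alone: a summit was kept when it lay within 1000 bp of the first or last base of at least 2 different protein-coding genes of the RefSeq annotation of build GRCm38. Of 14881 summits on nuclear chromosomes, 1793 met this rule (12%, Wilson 95% interval 11.5 to 12.6), and they reached 2833 of 21779 protein-coding genes (13.0%). Another 9144 summits were in reach of 1 gene and 3944 of none. The study held 1 ChIP library, for which 2 µg of rabbit anti-Sap130 was used, and 1 input library made without antibody, both from hearts of C57BL/6 embryos at stage E12.5. No treatment, mutation or transgene is named in the labels. The labels do not say how many embryos were pooled or whether both libraries came from the same hearts. The whole heart was used, so the summits cannot be assigned to a cell type. With 1 ChIP library there was no replicate error and no test between conditions. The intervals cover counting error only, and the comparisons below describe this 1 library.

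Sap130 is a subunit of the Sin3 corepressor complex, which carries the histone deacetylases Hdac1 and Hdac2 to chromatin. Mammalian genomes hold many pairs of neighbouring genes whose starts face away from each other across a short stretch of DNA, called head-to-head or divergent pairs. Such a stretch commonly lies in a CpG island and serves as a promoter in both directions, and genes of DNA repair, mitochondria, RNA processing and other basic functions are common among them. At such a place a single site of Sap130 cannot be assigned to 1 of the 2 genes.

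The DNA between the 2 starts of a head-to-head pair is shown for 4 pairs with a shared summit of high score and for 2 pairs with none, so that the places compared below can be seen. Each is read from RefSeq promoter sequence of GRCm38.p6, 5′ to 3′ on the plus strand, from the base after the start of the minus-strand gene to the base before the start of the plus-strand gene. Capitals mark matches, on either strand, to 1 of 11 short motifs that are spelled out further below. The stretches are examples and not the pairs of highest score. Bysl with Med20 (192) and Gtf3c4 with Ddx31 (186), for example, scored above Atp5pb with Wdr77 (167), and their stretches hold no motif match.
Ranbp1 and Trmt2a, chr16:18248695-18248846, 1 shared summit: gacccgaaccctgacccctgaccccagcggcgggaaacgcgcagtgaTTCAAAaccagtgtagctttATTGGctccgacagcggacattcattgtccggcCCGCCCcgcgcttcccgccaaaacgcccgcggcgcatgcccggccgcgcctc
Zfpl1 and Cdca5, chr19:6084976-6085096, 1 shared summit: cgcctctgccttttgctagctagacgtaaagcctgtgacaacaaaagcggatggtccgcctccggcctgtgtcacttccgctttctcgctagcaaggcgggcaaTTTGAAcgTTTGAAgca
Chtf8 and Utp4, chr8:106893594-106893639, 1 shared summit: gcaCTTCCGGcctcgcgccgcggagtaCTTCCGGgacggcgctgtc
Atp5pb and Wdr77, chr3:105959264-105959497, 2 shared summits: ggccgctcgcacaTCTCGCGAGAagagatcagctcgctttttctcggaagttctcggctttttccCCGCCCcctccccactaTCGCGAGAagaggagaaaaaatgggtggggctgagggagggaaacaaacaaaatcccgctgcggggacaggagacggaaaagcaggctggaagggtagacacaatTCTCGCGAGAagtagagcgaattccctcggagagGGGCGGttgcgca
Psmb9 and Tap1, chr17:34187331-34187555, no shared summit: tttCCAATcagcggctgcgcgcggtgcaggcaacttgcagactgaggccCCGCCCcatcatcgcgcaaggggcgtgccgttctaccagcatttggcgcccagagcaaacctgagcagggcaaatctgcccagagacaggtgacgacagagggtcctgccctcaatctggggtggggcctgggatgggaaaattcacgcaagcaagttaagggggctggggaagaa
H2bc7 and H2ac7, chr13:23574208-23574380, no shared summit: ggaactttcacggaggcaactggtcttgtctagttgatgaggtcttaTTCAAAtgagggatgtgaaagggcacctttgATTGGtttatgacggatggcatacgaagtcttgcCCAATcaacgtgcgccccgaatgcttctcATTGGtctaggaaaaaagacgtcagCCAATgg

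Most head-to-head gene pairs carried a shared Sap130 summit, and very few pairs that meet at their last bases did. A summit can be shared only by genes whose boundaries lie within 2000 bp of each other, which held for 4770 pairs of protein-coding genes. Of these pairs 1767 had a shared summit (37.0%). Orientation was read for pairs in which the RefSeq promoter table gives a strand for both genes. Among them, 818 of 1005 head-to-head pairs had a shared summit (81.4%, Wilson interval 78.9 to 83.7). Of 902 tandem pairs, in which the end of 1 gene lies next to the start of the next, 223 had one (24.7%, interval 22.0 to 27.6). Of 1049 tail-to-tail pairs, which meet at their ends, 16 did (1.53%, interval 0.941 to 2.46). The 3 intervals do not overlap. A further 173 pairs had their nearest boundaries on the same side of both genes, as nested genes and gene models with a common start do, and 62 of them had a shared summit (35.8%, interval 29.1 to 43.2). In 1641 pairs the strand of at least 1 gene was not known. There 648 had a shared summit, of which 276 were pairs among 24 genes of the protocadherin gamma cluster that share a single summit. Without pairs inside that cluster the share was 27.3% of 1365 pairs, and over all orientations 33.2% of 4494.

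The order of the 3 orientations was the same in each bin of distance under 750 bp. Among head-to-head pairs the share with a shared summit was 92.9% (562 of 605, interval 90.6 to 94.7) for starts under 250 bp apart, 90.2% (156 of 173) from 250 bp and 82.1% (55 of 67) from 500 bp. Tandem pairs held 47.0%, 47.0% and 46.8% in the same 3 bins of 250 bp, and tail-to-tail pairs 2.88%, 1.35% and 1.44%. Beyond 750 bp the share declined in head-to-head and tandem pairs alike. It was 52.0% of 50 head-to-head pairs from 750 bp and 17.3% of 110 pairs at 1000 bp or more, with 19.6% of 97 and 3.03% of 396 for tandem pairs. The reach of 1000 bp limits these shares, since a summit inside 1 gene is soon out of reach of a start farther off. How much of the decline comes from the reach was not tested. Head-to-head pairs whose genes overlap at their starts (82.2% of 360) and those with a gap between them (80.9% of 645) had intervals that overlapped.

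**Figure D1:**
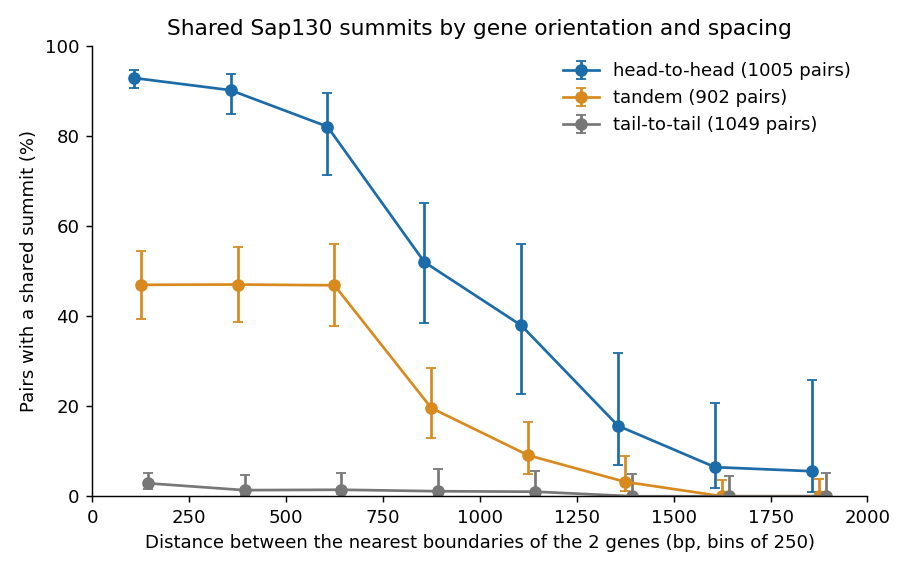
Share of gene pairs with a shared Sap130 summit (y axis, percent) by the distance between the nearest boundaries of the 2 genes (x axis, bp, bins of 250), for head-to-head, tandem and tail-to-tail pairs; bars are Wilson 95% intervals. Head-to-head pairs start at 92.9%, tandem pairs at 47.0% and tail-to-tail pairs at 2.88%, and the curves of head-to-head and tandem pairs decline beyond 750 bp.

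Starts in head-to-head pairs were also more often marked than other starts. A summit lay within 1000 bp of 1735 of 1993 starts in such pairs (87.1%, Wilson interval 85.5 to 88.5). The share was 37.7% of 11785 starts with no other protein-coding boundary within 2000 bp (interval 36.8 to 38.5) and 57.8% of 3714 starts in other close pairs. A start in a head-to-head pair can be counted through a summit that lies inside its partner, so the shares do not compare equal stretches of DNA.

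Most shared summits at head-to-head pairs lay inside 1 of the 2 genes, where most of the DNA in reach also lies. Of 1033 summits in reach of exactly 1 head-to-head pair, 444 (43.0%, Wilson interval 39.99 to 46.0) were inside the minus-strand gene only and 442 (42.8%, interval 39.8 to 45.8) inside the plus-strand gene only. Another 132 (12.8%) were in DNA that belonged to both genes, and 15 (1.45%, interval 0.882 to 2.38) lay between the genes. The layout limits that last share. Of the 1033 summits, 360 were at pairs whose genes overlap, where no place between them exists. The 673 others were at pairs with a gap. Over all 645 head-to-head pairs with a gap, starts were a median of 119 bp apart, so little DNA in reach lay between. Whether 15 is fewer than position alone would give was not tested. The 2 sides were held about equally. Starts are taken here as the outermost gene boundaries, and the promoter window lay at that boundary for 10583 of 17492 genes. From the 1033 summits, the nearest annotated start was a median of 187 bp away (quartiles 135 and 245 bp). Summits held by 1 gene were a median of 230 bp inside it (quartiles 177 and 356.75 bp) and 317 bp from the start of the other gene (quartiles 231 and 447 bp). Of these 886 summits, 570 (64.3%) lay at least 100 and under 300 bp inside the gene and 40 (4.51%) in its first 100 bp. Summits at the start of a single gene had a like position, with 86.2% of 7163 inside the gene, those at a median depth of 242 bp (quartiles 181 and 400 bp). The Ranbp1 and Trmt2a summit, at chr16:18248513, lay 181 bp inside Ranbp1 and so just to the left of the stretch printed above, and the Zfpl1 and Cdca5 summit, at chr19:6085187, lay 90 bp inside Cdca5.

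**Figure D2:**
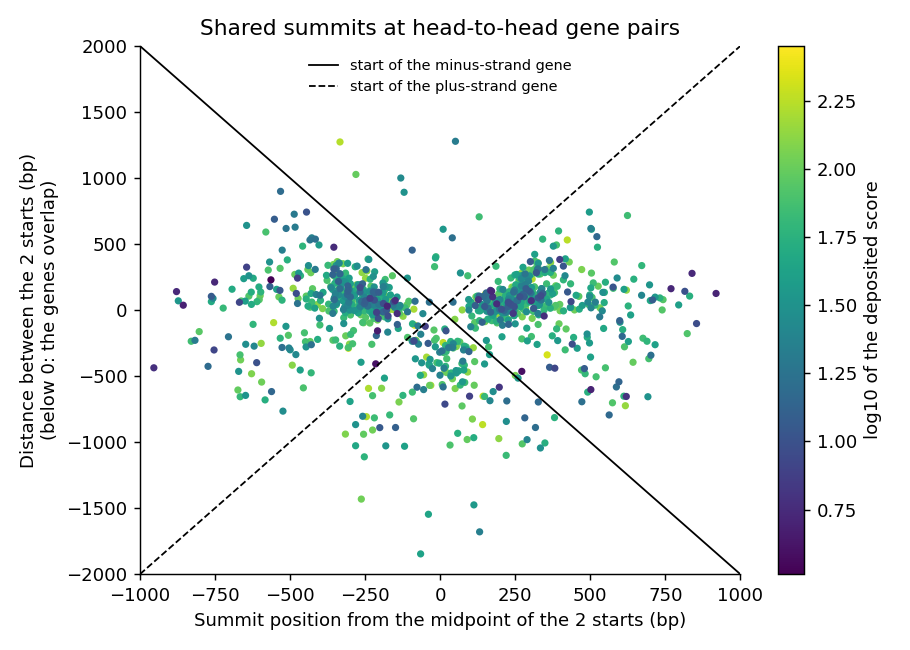
Position of each shared summit at a head-to-head pair (x axis, bp from the midpoint of the 2 starts) against the distance between the starts (y axis, bp, below 0 where the genes overlap), coloured by log10 of the deposited score. Lines mark the start of the minus-strand gene (solid) and of the plus-strand gene (dashed). In the upper part, where the genes do not overlap, the points form a cloud on each outer side of the lines, 15 of all 1033 summits lie between the genes, and the 2 clouds hold 444 and 442 of all summits with those of overlapping genes included.

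**Figure D3:**
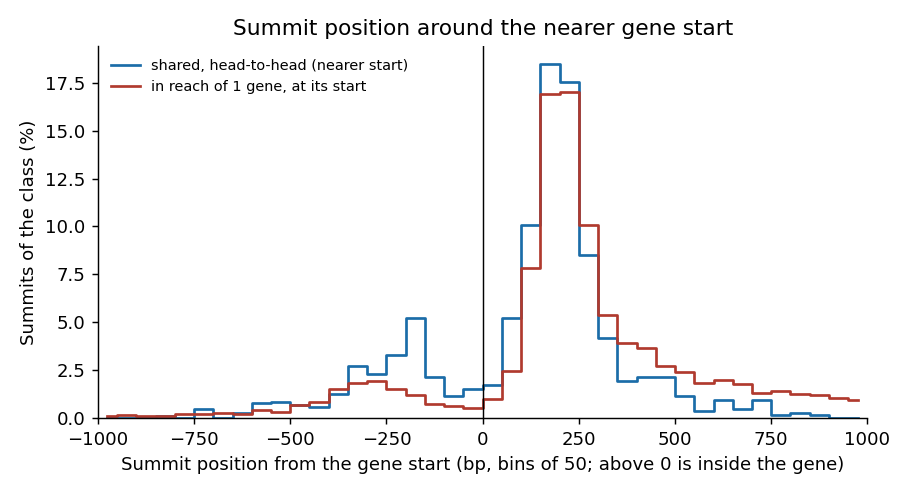
Share of summits (y axis, percent) by position from the nearer gene start (x axis, bp, bins of 50, positive inside the gene), for shared head-to-head summits and for summits in reach of 1 gene at its start. Both classes peak 150 to 250 bp inside the gene, with 18.5% and 16.9% of summits in the bin from 150 bp.

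Some head-to-head pairs carried 2 or more shared summits. Of the 818 pairs with a shared summit, 237 had 2 or more (29.0%, Wilson interval 26.0 to 32.2), 11 of them 3. In 215 of the 226 pairs with exactly 2 shared summits, the left one was inside the minus-strand gene and the right one inside the plus-strand gene (95.1%, interval 91.5 to 97.3). Pairs whose genes overlap are included, and they were 72 of the 237. There a summit can lie in both genes, as both summits did at Catsper2 and Pdia3, so the 215 are not all pairs with separate summits for each gene. The 2 summits were a median of 617.5 bp apart (quartiles 521.75 and 766.5 bp, range 274 to 1504 bp). The higher of the 2 scores had a median of 60.2 and the lower 27.9, with a median difference of 22.9 (quartiles 11.7 and 49.0). Sorting any 2 scores gives a difference, and all shared head-to-head summits had quartiles of 27.5 and 83.6. Whether the 2 summits of a pair differ more or less than unrelated summits was not tested. The 2 example pairs below lay above the upper quartile of the difference. The 581 pairs with 1 shared summit had a median score of 65.2. At Aimp2, of a scaffold protein of tRNA synthetases, and Pms2, of DNA mismatch repair, the summit 190 bp inside Aimp2 scored 215 and the one 268 bp inside Pms2 41.2. At Srd5a1, a steroid reductase gene, and Nsun2, of an RNA methyltransferase, the summit 168 bp inside Srd5a1 scored 18.1 and that 158 bp inside Nsun2 178. The higher score was inside the minus-strand gene in the first pair and inside the plus-strand gene in the second. Among tandem pairs with a shared summit, 31 of 223 had 2 or more (13.9%, interval 9.97 to 19.1).

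Shared summits had higher scores than other summits as a group. The score is the −log10 of a significance value that the authors' peak caller gave each peak, and it ranks summits within this list. The median was 50.3 (quartiles 25.04 and 82.3) for shared summits, 38.6 (16.7 and 69.6) for summits in reach of 1 gene, and 33.3 for all nuclear summits. Of the shared summits, 657 (36.6%, Wilson interval 34.4 to 38.9) were at or above 65.2, the upper quartile of all, against 25.1% of all nuclear summits and 27.9% of those in reach of 1 gene (interval 27.0 to 28.8). By orientation the medians were 53.8 at the 52 summits of same-side pairs, 53.6 at head-to-head pairs, 44.5 at tandem and 32.2 at the 11 summits of tail-to-tail pairs alone. Summits in reach of 1 gene had a median of 39.8 where they were at its start and 11.0 at its end. Quartiles overlapped widely between the head-to-head class (27.5 and 83.6) and single starts (17.6 and 71.1). At head-to-head pairs the median was 55.3 for starts under 250 bp apart, 44.7 from 250 bp and 40.9 from 500 bp, with upper quartiles of 86.0 under 250 bp and 76.8 from 500 bp. The 26 summits from 750 bp had a median of 53.5 and an upper quartile of 96.2, and the 18 at 1000 bp or more a median of 45.3, so the score did not fall steadily with distance. At the edge of the rule, 90 summits with their farther gene in the last 100 bp of the reach had a median score of 51.0. Just outside it, 87 summits whose second gene lay up to 100 bp beyond the reach had 48.6. Another summit lay within 1000 bp of 711 shared summits (39.7%) and of 26.1% of summits in reach of 1 gene.

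**Figure D4:**
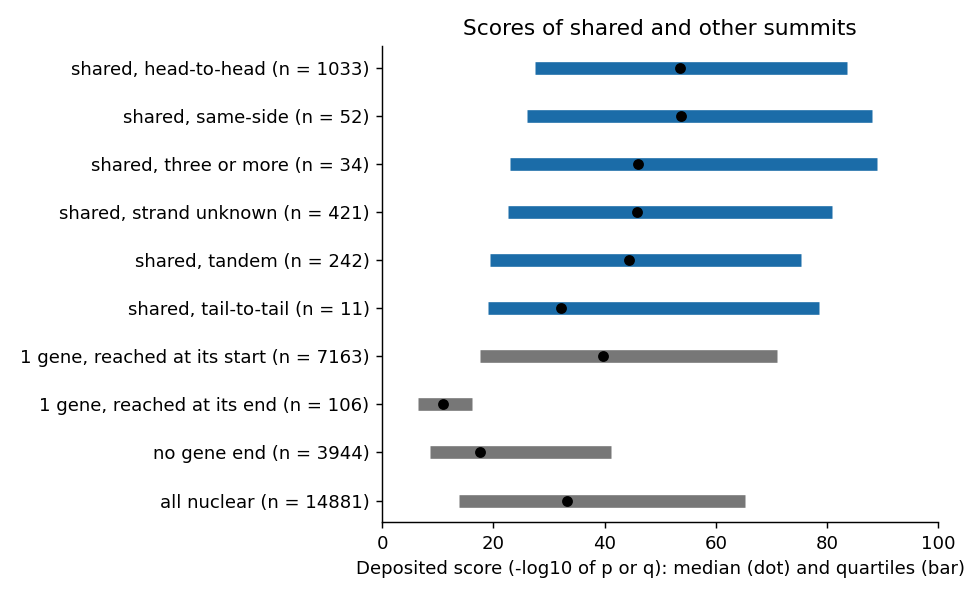
Deposited score (x axis, −log10 of the peak's p or q) by class of summit, as median (dot) and quartiles (bar), with shared classes in blue and others in grey. Head-to-head summits have a median of 53.6, summits at the start of 1 gene 39.8 and summits at the end of 1 gene 11.0, and the quartile bars of head-to-head summits and single starts overlap.

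The shared summits of highest score lay at genes for tRNA modification, ribosome assembly, DNA repair and mitosis. The first, with a score of 372, was at chr10:127042047, inside Mettl1, the catalytic subunit gene of a tRNA guanosine methyltransferase, 498 bp from its left end and 33 bp beyond the right end of Eef1akmt3, of a lysine methyltransferase of a translation elongation factor. The summit of Ranbp1, a regulator of Ran-dependent nuclear transport, and Trmt2a, of a tRNA uridine methyltransferase, came next with 282. Pigw, of glycolipid anchor synthesis, and Myo19, of a myosin that moves mitochondria, overlapped by 116 bp and shared a summit of 237. Bop1, of ribosome assembly, and Hsf1, of the heat shock transcription factor, shared one of 226. Pfdn6, of the prefoldin chaperone, and Wdr46, of a nucleolar protein, shared 216, and Cdca2, of a mitotic chromosome protein, and Kctd9 shared 215. The next were Aimp2 and Pms2 (215), Prr3 and the GTPase gene Gnl1 (215), and Fbl, of the rRNA methyltransferase fibrillarin, with the kinase gene Dyrk1b (213). Nudt6 and Spata5 had 212, Arl16 and Hgs, of endosomal sorting, 211, and 1110059G10Rik and the mitotic kinesin gene Kif15 210. Gnptg, of the lysosomal sorting enzyme, and Tsr3, of rRNA modification, had the same score of 210, and Timm13 and Lmnb2 had 208. Of the 15 pairs of highest score, 8 were head-to-head, 1 was tandem and 6 had a strand that was not known. Over all 1793 shared summits these 3 classes held 1033, 242 and 421. Whether the 15 differ from the whole was not tested.

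The 5 shared summits of lowest score were at genes of several functions. Arhgef25 and Dtx3 had 2.71, and Slc15a4 and Glt1d1 3.16. Both Zranb3 with R3hdm1 and Dnajc4 with Nudt22 had 3.26, and so had Hax1 with Ubap2l. In 4 of these 5 another summit stood within 1000 bp, from 320 to 974 bp away. The share over all shared summits was 39.7%, and 5 summits are too few to compare with it.

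At tandem pairs the shared summit was mostly at the gene start and not at the neighbour's end. Of 242 summits in reach of exactly 1 tandem pair, 204 were nearer to the start than to the end (84.3%, Wilson interval 79.2 to 88.3) and 186 were inside the gene that starts there (76.9%), at a median of 202.5 bp (quartiles 159.5 and 285.5 bp). In 3 of the 186 the neighbour also covered the summit. Another 21 were only inside the neighbour that ends there, and 35 lay between the genes. Timm13, of a chaperone of the mitochondrial intermembrane space, held the summit of score 208 at 322 bp inside its start, 716 bp outside the end of the lamin gene Lmnb2. Pwp2, of ribosome assembly, held one of 202 at 188 bp inside, next to the end of Trappc10. Exosc6, of the RNA exosome, held one of 195 at 114 bp inside, 884 bp beyond the end of the alanyl-tRNA synthetase gene Aars. Mrpl12, of the mitochondrial ribosome, held one of 162 at 162 bp inside, beyond the end of Hgs, which itself shares a summit with Arl16 at its other end. The summit of Cks2, of a cyclin-dependent kinase subunit, and Secisbp2, of selenoprotein synthesis, scored 163 and stood 102 bp before the start of Secisbp2.

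The few shared summits at tail-to-tail pairs were often close to a start of 1 of the pair's own genes. Of the 11 that were in reach of 1 such pair only, 6 had an annotated start within 1000 bp. In each of the 6 that start was of a gene of the same pair. For example, the summit of score 113 at Rps21, of the small ribosomal subunit, and Cables2 lay 150 bp from an annotated start of the short gene Rps21. That at Rnaseh2c, a ribonuclease subunit gene, and the acetyltransferase gene Kat5 (65.1) lay 176 bp from the start of Rnaseh2c. The highest, with 158, was at Dvl1, of Wnt signalling, and the taste receptor gene Tas1r3, which overlap by 36 bp. It was 224 bp beyond the last base of Dvl1 and 259 bp inside Tas1r3, and its nearest annotated start was 3826 bp away. The clustered histone genes H2ac21 and H2ac20 held 2 summits, of 23.2 and 14.3, at 101 and 347 bp from the start of H2ac21.

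All 52 shared summits at pairs of the same side alone had an annotated start within 1000 bp. Slc5a3, of a myo-inositol transporter, and Mrps6, of the mitochondrial ribosome, whose left ends are 14 bp apart, shared a summit of 152. Adat3, of a tRNA adenosine deaminase, and Scamp4, with left ends 2 bp apart, shared one of 132, and Mrpl43 and the mitochondrial helicase gene Twnk one of 133. In reach of 3 genes were 33 summits. Among them, Bysl, of ribosome assembly, Med20, a Mediator subunit gene, and the gene model Gm20517 had 192, and Derpc, Chtf8 and Utp4 had 183. One summit of low score, 12.8, was in reach of 24 genes and gene models of the protocadherin gamma cluster, which encodes neuronal adhesion proteins. It stood 723 to 733 bp beyond the right ends that these genes have in common and inside none of them.

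Shares of genes with a shared summit ran from 0 to 51.8% over 15 gene lists, with many overlapping intervals and no test between lists. The share over all protein-coding genes was 13.0%, and 32.2% of all genes had another protein-coding boundary within 2000 bp of their own. Enzymes of tRNA modification had a shared summit in 29 of 56 genes (51.8%, Wilson interval 39.0 to 64.3), mitochondrial ribosomal proteins in 37 of 78 (47.4%, 36.7 to 58.4) and aminoacyl-tRNA synthetases in 14 of 35 (40%, 25.6 to 56.4). The respiratory chain and ATP synthase, with assembly factors, had 38 of 97 (39.2%, 30.1 to 49.1). DNA replication and repair genes had 44 of 117 (37.6%, 29.4 to 46.6), splicing factors and hnRNPs 24 of 67 (35.8%, 25.4 to 47.8), clustered histones 22 of 69 (31.9%, 22.1 to 43.6), and cilia and centrosome genes 27 of 87 (31.0%, 22.3 to 41.4). Cell cycle and mitosis genes had 22 of 89 (24.7%, 16.9 to 34.6), and cytoplasmic ribosomal proteins 19 of 78 (24.4%, 16.2 to 34.9). The proteasome had 7 of 39 (17.9%, 8.98 to 32.7) and the Sin3 complex itself 5 of 30 (16.7%, 7.34 to 33.6). The intervals of the proteasome and the Sin3 complex included 13.0%. Zinc finger Zfp genes had 37 of 397 (9.32%, 6.84 to 12.6) and heart transcription factors 3 of 40 (7.5%, 2.58 to 19.9). The interval of the heart factors also included 13.0%. Sarcomere genes had 0 of 27, for which the Wilson interval reaches 12.46% and the limit of 3 counts in 27 is 11.1%.

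The lists also differed in how many genes had a close neighbour at all. Another boundary was within 2000 bp for 67.9% of the tRNA modification genes, 64.1% of mitochondrial ribosome genes and 75.4% of clustered histone genes, but for 25.9% of sarcomere genes and 7.5% of heart transcription factors. Among genes with a close neighbour, a shared summit was found for 40.4% of all protein-coding genes. The share was 82.4% for aminoacyl-tRNA synthetases, 76.3% for tRNA modification and 74.0% for mitochondrial ribosome genes. It was 64.9% for splicing, 63.3% for respiratory chain, 61.1% for cell cycle, 60.3% for DNA replication and repair and 58.7% for cilia genes. Nearer the 40.4% were Zfp genes with 45.7%, cytoplasmic ribosome 45.2%, histone genes 42.3%, Sin3 complex 41.7% and proteasome 41.2%. Of 7 sarcomere genes, 0 had a shared summit. All 3 heart transcription factors with a close neighbour had one. Lists differed as well in how many genes had any summit at an end, shared or not. That held for 10532 of all 21779 genes, 82 of 89 cell cycle genes and 11 of 27 sarcomere genes. Among genes with any such summit, a shared one was found for 26.9% over all protein-coding genes. The share was 63.0% for tRNA modification, 53.7% for histone, 52.9% for mitochondrial ribosome, 45.8% for respiratory chain and 45.2% for synthetase genes. It was 41.9% for DNA replication and repair, 40.7% for splicing and 35.1% for cilia genes. Near or below the 26.9% were cell cycle (26.8%), cytoplasmic ribosome (26.0%), proteasome (21.2%) and Sin3 complex genes (19.2%). Zfp genes (15.2%), heart transcription factors (10.3%) and sarcomere genes (0) were below it. How far neighbours, or having any summit at an end, account for the differences between lists was not tested.

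**Figure D5:**
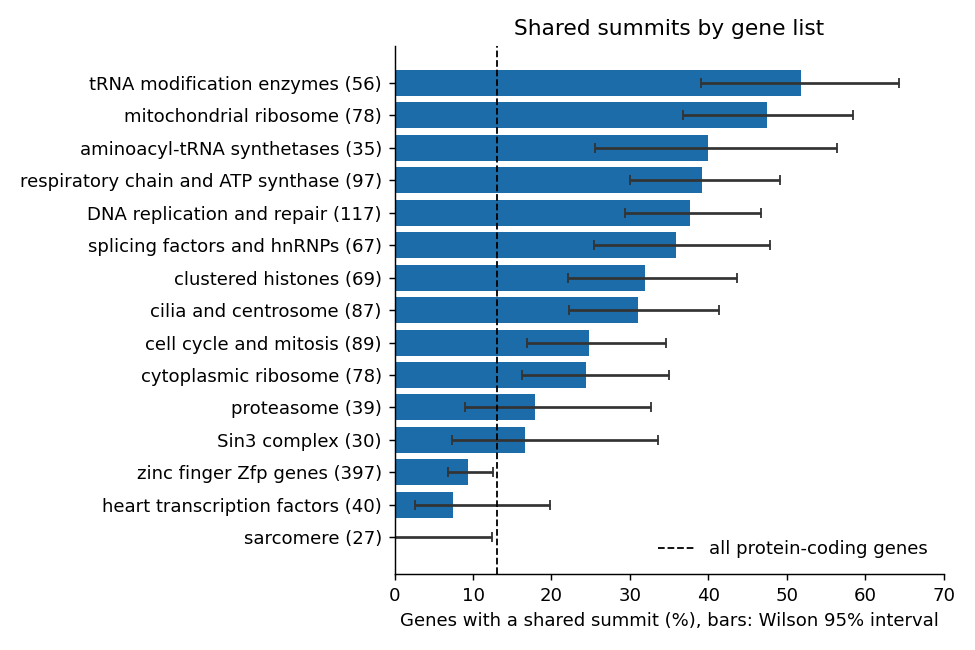
Share of genes with a shared Sap130 summit (x axis, percent) for 15 gene lists (y axis, number of genes in brackets), with Wilson 95% intervals; the dashed line is the 13.0% of all protein-coding genes. Enzymes of tRNA modification are highest with 51.8% and sarcomere genes lowest with 0.

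The members of highest score in each list show which genes were joined. After Mettl1 and Trmt2a, the tRNA modification list had Nsun2 (178). Mitochondrial ribosome genes were Mrpl12 (162), Mrps6 (152) and Mrpl43 (133). The ATP synthase gene Atp5pb shared 167 with Wdr77, of a methylosome protein. The complex I gene Ndufs1 shared 147 with the elongation factor gene Eef1b2, and the assembly factor gene Ndufaf7 shared 132 with Cebpz. Of the synthetases, Aars had 195, Vars 160 and Wars 118, the last with Wdr25. DNA repair genes were Pms2, the uracil glycosylase gene Ung with Alkbh2 (181), and Orc6, of the origin recognition complex, with Vps35 (160). The splicing factor gene Srsf7 shared 173 with Gemin6, of the SMN complex, which assembles spliceosomal particles, and Snrpa and U2af2 had 135 and 112.

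Cell division genes joined to a neighbour were E2f4, of a cell cycle repressor, with Exoc3l (177), Anapc10, of the anaphase-promoting complex, with Abce1 (164), and Cdca8, of the chromosomal passenger complex, with 9930104L06Rik (153). Cilia genes were Ift74 with Plaa (155), Ift80 with the condensin gene Smc4 (143), and Cep44 with Fbxo8 (136). Ribosomal protein genes were Rps25 with Trappc4 (147), Rpl4 with Zwilch (128) and Rpl12 with Lrsam1 (122). Proteasome genes were Psmc2 with Dnajc2 (150), Psma7 with Ss18l1 (121) and Psmd13 with Sirt3 (95.6). Among zinc finger genes Zfp276, with Vps9d1, had 132, Zfp653 100 and Zfp513 95.7. In the Sin3 complex the histone demethylase gene Kdm5a shared 104 with Ccdc77, Arid4b shared 94.6 with Ggps1, and the histone chaperone gene Rbbp4 shared 91.9 with Zbtb8os. Heart transcription factors were Foxh1 with Ppp1r16a (176), Srf with Cul9 (46.9) and Hey1 with LOC115489673 (28.7). Clustered histone genes were unlike the others in having low shared scores, with a median of 16.0 against 59.0 over all genes with a shared summit. Their highest was 82.3, at the tandem pair H2ac10 and H3c8, 41 bp before H3c8. Of the heart genes used to describe the tissue, Nkx2-5, Tnnt2 and Actn2 had a summit at an end, of 11.8, 6.93 and 26.0, Gata4 and Myh6 had none, and none of the 5 was shared.

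All 12 divergent pairs chosen as textbook examples carried a shared summit, as did 91.5% of all head-to-head pairs with starts under 750 bp apart, so the count is near that background. Hspd1 and Hspe1, of the mitochondrial chaperonin and its lid, shared 166. Ppat and Paics, of purine synthesis, had 122, and Psmd13 and the deacetylase gene Sirt3 95.6. The DNA repair gene Brca1 and Nbr1, of an autophagy receptor, had 66.6, with the summit 109 bp inside Brca1 and the 2 starts 152 bp apart. Surf1 and Surf2 had 55.2, and the basement membrane collagen genes Col4a1 and Col4a2 54.7. The DNA damage kinase gene Atm and Npat, of histone gene transcription, had 2 summits, 59.2 and 36.2, the first 275 bp inside Atm and the other 295 bp inside Npat. Prkdc and Mcm4, of DNA end joining and replication, had 56.2 and 39.8. The lowest were Tk1, of thymidine salvage, with Afmid (15.7 and 6.49) and the mitochondrial genes Sars2 and Mrps12 (15.7 and 14.7). The last 2 pairs show that such a pair could rank low in this list, below the median of 33.3.

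Promoters of head-to-head genes with a shared summit were rich in CpG, like those of single genes with one. Windows of 300 bp, from 250 before to 50 after a start, were compared for 17492 genes, 1 per gene. For 10583 of these genes the window lay at the outermost boundary, and for the others at another annotated start. The median of the ratio of observed to expected CpG was 0.846 in 1625 windows of head-to-head genes with a shared summit (quartiles 0.714 and 0.970) and 0.587 in 368 of head-to-head genes without (0.317 and 0.824). It was 0.803 in 4439 windows of genes with a summit at the start and no close neighbour, and 0.220 in 7346 such genes without a summit. The GC content had medians of 62.7%, 56.7%, 63.0% and 48.0% in these 4 groups.

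The 11 motifs were searched as exact letters on both strands. GGGCGG, the GC box of Sp and Klf factors, was in 66.0% of windows of head-to-head genes with a shared summit, in 72.1% of windows of single genes with a summit and in 46.3% of all 17492 windows. CCGGAAG, the core of ETS factor sites, was in 28.0%, 16.1% and 11.9%, and TCTCGCGA, the core of the site of BANP, in 4.80%, 2.34% and 1.53%. AAGATGGCG, of YY1, was in 5.48%, 3.04% and 1.92%, CGCATGCG, of NRF1, in 5.17%, 4.48% and 2.55%, and ACTACAA, of ZFP143, in 6.22%, 4.10% and 3.82%. CCAAT, of NF-Y, was in 40.2%, 38.1% and 39.2%, CACGTG, the E-box, in 11.0%, 10.9% and 7.91%, and TGACGTCA, the CRE, in 3.94%, 3.78% and 2.33%. TTTGAA, of cell cycle genes, was in 9.91%, 10.8% and 16.5%, and TATAAA, of the TATA box, in 4.25%, 6.56% and 13.3%. A window of a head-to-head gene often reaches past the start of its partner, so it can hold sequence that serves both genes. Of the stretches printed above, Chtf8 and Utp4 have the ETS core in 2 places and Atp5pb and Wdr77 the BANP core in 3 places. Zfpl1 and Cdca5 have TTTGAA in 2 places, and H2bc7 and H2ac7 have CCAAT in 4.

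The score of a shared head-to-head summit went with some of these letters. In genes with head-to-head scores at or above their upper quartile, 36.7% of 510 windows held the ETS core, against 21.5% of 404 at or below the lower quartile only, and 7.65% against 2.72% held the BANP core. For CCAAT the shares were 37.5% and 45.3%, and for ACTACAA 4.71% and 8.91%. The median CpG ratio was 0.912 and 0.799.

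Most head-to-head pairs with distant starts and some with close starts lacked a shared summit. A summit counts here as at a gene when it lies within 1000 bp of either of its boundaries, so summits deeper inside are left out. Of the 1005 pairs, 22 (2.19%) had separate summits at both genes, with starts a median of 1468.5 bp apart, and 71 (7.06%) had a summit at 1 gene only, with starts a median of 1331 bp apart. The other 94 (9.35%, Wilson interval 7.70 to 11.3) had none in that reach of either gene, although their starts were a median of 345.5 bp apart. Among those with starts less than 250 bp apart were Psmb9 and Tap1, of antigen processing, Duox2 and Duoxa2, of thyroid hormone synthesis, Zic1 and Zic4, of cerebellar transcription factors, and Wfdc8 and Wfdc6b, of secreted protease inhibitors. The histone pairs H2bc7 with H2ac7, H2ac8 with H2bc8 and H2ac22 with H2bc22 were there as well, as was Rnf151 with Rps2, of the small ribosomal subunit. These examples were chosen after their values were seen. In 26 stretches of 20 to 250 bp between the starts of pairs without a shared summit, the median GC content was 55.0% and the median density 3.84 CpG per 100 bp, against 64.8% and 9.09 in 299 stretches of pairs with one. The 2 groups were not alike in length, with a median of 157.5 bp without a shared summit and 80 bp with one.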

How the data were processed

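Sap130 ChIP-seq of E12.5 mouse heart, 1 ChIP and 1 input library, was analysed from the peak summits that the authors deposited for GRCm38 (mm10). Per the submitters' processing notes, Bowtie 1.1.2 and MACS2 2.1.0.20140616 were used. The labels give no settings, duplicate handling or threshold. The authors deposited each 1-base summit with a −log10 score of significance, and whether it stands for a p-value or for a q-value could not be settled. It grows with depth and enrichment and was used to rank summits within this list. Read depth is not known here. The input has no values of its own in the summit list.

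Of 21900 protein-coding genes of GRCm38.p6 (RefSeq), 21779 were used; left out were mitochondrial genes, genes on no named chromosome and, except on Y, genes that start within 3 Mb of the chromosome's first base. Strand was known for 17492 (80.3%), from RefSeq promoter windows, and for none on chromosome 18. A gene's boundaries are the outermost of all its transcripts. Pairs were classed by their nearest boundaries. Shares carry Wilson 95% intervals, and no test was made. The named genes are the 15 highest and 5 lowest shared summits, those in reach of 4 or more genes, the 5 highest per orientation, the 3 highest per list and the textbook pairs; some are not reported here. Members and lists were chosen with earlier results of these data known. The list symbol Trmt61b was not matched. Pairing and classing were tested on made-up genes. Python 3.11.15, numpy 2.4.6, pandas 2.3.3, scipy 1.17.1 and matplotlib 3.10.9 were used.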

Additional observations from a re-analysis of the deposited data

Results flagged for a closer look

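The deposited list also held 5 summits on the mitochondrial genome, which the comparisons above leave out. Their scores ran from 3.56 to 7.44, and 3 of them lay within 1000 bp of 2 or more mitochondrial protein-coding genes. They stand here because they lie outside the nuclear list.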

How the results depend on the processing

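No paired analysis was possible because the ChIP and the input were 1 sample each, and no test was made. The number of shared summits, 1793 in the report, was 1164 with a reach of 500 bp and 2747 with 2500 bp. It was 1173 with scores at or above the nuclear median and 657 at or above the upper quartile. It was 3458 with genes of any type and 1088 with gene starts only. The share of gene pairs with a shared summit, 37.0%, was 29.7% at 500 bp, 23.0% and 13.8% at the 2 score limits, 28.5% with genes of any type and 79.2% with starts only. Without protocadherin gamma genes, an alternative chosen after seeing the data, it was 33.2%. The median score, 50.3, was 54.3 at 500 bp, 45.5 at 2500 bp, 70.2 and 93.9 at the score limits, 44.3 with genes of any type and 53.7 with starts only. These changes follow from how each alternative selects summits or genes. Merging close summits and leaving out Gm and Rik gene models moved these 3 values little. Head-to-head pairs led tandem pairs, and these tail-to-tail pairs, under every alternative that gives all 3 shares, which were also computed after seeing the data. The sizes moved: the head-to-head share, 81.4% in the report, was 74.2% at 500 bp, 76.8% at 2500 bp, 67.8% with genes of any type, and 64.1% and 39.3% at the 2 score limits. The tail-to-tail share, 1.53%, was 0.414% at 500 bp and 8.52% at 2500 bp. Read depth and replicate error are unknown, and the strand was known for 80.3% of genes.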
